A study of Mus musculus with 17 samples.

Results

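The variable (V) segments of the alpha-beta T cell receptor are the germline pieces that encode most of the antigen-contacting part of the receptor. All genes of the deposited count table whose symbol is Trav or Trbv followed by a digit were taken. The rule gave 163 of 48709 listed genes, 128 Trav segments of the alpha chain and 35 Trbv segments of the beta chain, and each segment was expressed as its share of all Trav or all Trbv counts of a library. The RNA came from CD8+ T cells, the cytotoxic lineage, of aged APP-PS1 and wild type (WT) mice, and the 17 libraries fell into 4 groups. WT blood had 5 libraries and WT brain 5, all from females. APP-PS1 blood had 3 libraries (2 male, 1 female) and APP-PS1 brain 4 (3 male, 1 female), so sex and strain largely coincide.

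APP-PS1 mice carry a chimeric mouse and human amyloid precursor protein with the Swedish mutation (Mo/HuAPP695swe) and a mutant human presenilin (PS1-dE9), each driven in neurons of the central nervous system by the prion protein promoter. The transgenes are thus directed to neurons, and their expression in the T cells was not examined. WT mice are the controls, and the exact age of either strain could not be taken from the labels. Brains were dissociated mechanically and freed of myelin on a density gradient, whereas blood went through red cell lysis, so tissue and preparation cannot be told apart. Libraries are numbered within a group in accession order, which names them and pairs nothing.

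In a developing T cell, recombination joins a V segment to a J segment at the alpha locus, and a V, a D and a J segment at the beta locus, and the joined exon is spliced to a constant exon. A T cell therefore carries a given rearranged V segment for life and passes it to its progeny, and a set of cells that descends from few precursors uses few V segments. Mouse Trav segments lie upstream of the delta locus and of the Trac constant gene. Much of the Trav array was duplicated during evolution, and the letters d and n in a symbol mark copies in the duplicated blocks.

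The sequences below are of selected segments and, in the next paragraph, of alpha copies with the same V exon and a relative of theirs. They were read from the GRCm38 genome with the GENCODE M21 transcripts, are given 5′ to 3′ on the plus strand, and are in lower case. For the most counted Trbv segments and for Trav16n, Trav14-2 and Trav12-2, the last 90 coding bases are printed, and the capitals mark the last in-frame cysteine codon, after which only 10 to 18 germline bases remain before the join.
Trav16n, chr14:53351532-53351621: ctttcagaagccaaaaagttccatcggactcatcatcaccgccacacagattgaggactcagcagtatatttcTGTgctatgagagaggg
Trav14-2, chr14:53641136-53641225: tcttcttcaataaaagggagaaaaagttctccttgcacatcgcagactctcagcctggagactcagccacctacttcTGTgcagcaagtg
Trav12-2, chr14:53616825-53616914: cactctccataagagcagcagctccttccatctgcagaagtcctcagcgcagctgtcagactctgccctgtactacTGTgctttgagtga
Trbv3, chr6:41048739-41048828: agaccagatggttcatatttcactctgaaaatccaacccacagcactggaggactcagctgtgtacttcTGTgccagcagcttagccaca
Trbv19, chr6:41178959-41179048: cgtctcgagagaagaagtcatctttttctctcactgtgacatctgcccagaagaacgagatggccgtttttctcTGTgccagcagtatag
Trbv13-2, chr6:41121743-41121832: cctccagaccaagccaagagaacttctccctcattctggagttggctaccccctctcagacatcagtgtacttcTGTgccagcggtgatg
Trbv12-2, chr6:41119275-41119364: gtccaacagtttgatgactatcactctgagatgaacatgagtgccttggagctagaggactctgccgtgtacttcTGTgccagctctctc

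Trav3d-3 and Trav3n-3 together held the highest count of any V sequence in a single library, and their 291-base coding V exons are the same letter for letter. The exon printed for Trav3d-3 is thus also that of Trav3n-3 at chr14:53283885-53284175. Trav3-3, a related segment without a copy letter, differs from both at 4 positions, marked by capitals.
Trav3d-3, chr14:52972748-52973038: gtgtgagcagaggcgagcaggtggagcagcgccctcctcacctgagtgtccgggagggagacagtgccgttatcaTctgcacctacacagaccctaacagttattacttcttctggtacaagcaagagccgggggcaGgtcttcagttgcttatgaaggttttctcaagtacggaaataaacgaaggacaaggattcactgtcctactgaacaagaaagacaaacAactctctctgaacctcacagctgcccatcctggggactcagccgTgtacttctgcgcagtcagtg
Trav3-3, chr14:53666216-53666506: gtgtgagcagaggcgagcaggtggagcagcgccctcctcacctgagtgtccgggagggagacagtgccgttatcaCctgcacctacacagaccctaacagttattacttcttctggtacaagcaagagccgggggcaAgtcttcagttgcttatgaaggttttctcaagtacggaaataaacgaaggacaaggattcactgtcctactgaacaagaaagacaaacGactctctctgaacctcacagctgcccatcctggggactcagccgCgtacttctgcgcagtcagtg

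Identical exons were common at the alpha locus. Each of 108 Trav segments annotated as functional was compared with its closest relative over the coding V exon: the median identity was 98.9%, and 91 of 108 had a relative at 95% or more. Among 22 functional Trbv segments the median was 62.8%, the highest value was 91.8% (Trbv13-2 with Trbv13-3), and 0 reached 95%. The Trav segments formed 17 pairs with identical V exons, and these held 68 of 149 Trav counts (45.6%). In the 16 cases where a library had at least 2 counts for such a pair, both copies were counted in all 16, equally in 8 and unequally in 8. The handling of reads that match both copies is not given in the sources used, so counts of identical copies were added together wherever dominance is described, and the values by symbol are printed beside them.

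V segments were sparsely covered. The libraries were shallow, with totals of 27646 to 214670 counts, and the 163 segments had 305 counts in all, or 198 CPM, the counts scaled to a common library total. A library held 4 to 51 V counts over both loci. At least 20 counts were reached by 2 libraries for Trav and by 1 library for Trbv. A share from so few counts has a wide interval, and a library with 3 counts cannot show a top share below 33.3%. Counts are reads and not cells: neither cell numbers nor molecular identifiers are described in the labels, and several counts can come from 1 cell. Intervals below are exact Clopper-Pearson 95% intervals and cover counting error only.

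The cells matched their label. The 8 fixed markers of CD8 alpha-beta T cells, among them Cd8a, Cd8b1 and Cd3e, were all detected, and their sum ranged from 7295 to 12080 CPM over the 17 libraries. Of 3 CD4 T cell genes, Cd4 and Foxp3 were at 0 in every library and Cd40lg had 6 counts. Of 3 NK cell genes 2 were detected and Ncr1 was at 0, with list sums of 79.9 to 301 CPM in WT blood, 39.1 to 261 CPM in WT brain, 21.6 to 146 CPM in APP-PS1 blood and 0 to 305 CPM in APP-PS1 brain. Of 7 microglia and monocyte genes 4 were detected, with P2ry12, Tmem119 and C1qa at 0 and sums of 97.8 to 237 CPM in WT blood, 0 to 109 CPM in WT brain, 25.6 to 195 CPM in APP-PS1 blood and 23.4 to 107 CPM in APP-PS1 brain. Red cell genes were the other cell's markers that differed most between groups, with sums of 2152 to 9967 CPM in WT blood and 2970 to 8072 CPM in APP-PS1 blood against 156 to 873 CPM in WT brain and 36.2 to 368 CPM in APP-PS1 brain. The part of these cells in the V counts was not tested.

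At the alpha locus, on chromosome 14 from 52427928 to 53977678, 45 of 128 segments had a count, and 149 counts were found in all. Of 108 functional segments 44 were detected, and of 20 pseudogenes 1, Trav9n-1, with 1 count. Most were seen rarely: 17 segments had a single count, 10 were seen in at least 3 libraries, and 11 segments with at least 5 counts held 86 of the 149 counts. For a segment at 0, 3 counts of the 149 were taken as the limit, a share of up to 2.01%.

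Trav16n, on chromosome 14 from 53351028 to 53351621, was the most counted alpha segment by its own symbol, with 17 counts in 7 libraries. It had 2, 4, 1, 0 and 1 counts in WT blood libraries 1 to 5, 0, 6, 0, 1 and 0 in WT brain libraries 1 to 5, 0 in each APP-PS1 blood library, and 0, 2, 0 and 0 in APP-PS1 brain libraries 1 to 4. Its counts were thus spread over both tissues and both strains, with WT brain library 2 and WT blood library 2 highest. It made up 16.3% of the Trav counts in WT blood (interval 7.32 to 29.7%), 14.3% in WT brain (5.94 to 27.2%) and 4.88% in APP-PS1 brain (0.598 to 16.5%). The intervals overlap, and APP-PS1 blood had 0 counts of it among only 10 Trav counts.

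The pair Trav3d-3/Trav3n-3 behaved otherwise. Of its 23 counts, 19 came from APP-PS1 brain library 3 (9 for Trav3d-3 and 10 for Trav3n-3), 2 from WT blood library 5 and 2 from WT brain library 2, and the other 14 libraries had none. In APP-PS1 brain library 3 it made up 19 of 23 Trav counts, 82.6% (interval 61.2 to 95.05%). The other 3 APP-PS1 brain libraries, with 0, 3 and 15 Trav counts, had 0 counts of it, so its 46.3% of the pooled APP-PS1 brain Trav counts (30.7 to 62.6%) rests on that library alone. Trav3-3, printed above beside it, had 1 count, in WT brain library 3. The remaining 4 counts of APP-PS1 brain library 3 were 3 of Trav14-2 and 1 of Trav12-1.

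Other alpha segments were led by single libraries as well, at lower counts. All 4 counts of Trav12-3 were in WT blood library 1, 4 of 5 counts of Trav7-4 in WT blood library 4, 4 of 6 counts of Trav4d-4/Trav4n-4 in APP-PS1 blood library 2, and all 4 counts of Trav14d-1/Trav14n-1 in APP-PS1 brain library 4. The 3 counts of Trav15d-1-dv6d-1/Trav15n-1 were most of the 5 Trav counts in WT brain library 1. Trav4-4-dv10 had 2 and 3 counts in WT brain libraries 4 and 5 and 1 in APP-PS1 blood library 1. Trav6-6/Trav6d-6 was spread more widely, with 12 counts in 5 libraries: 3 in WT blood library 1, 4 in WT blood library 2, 2 in each of WT brain libraries 2 and 5, and 1 in APP-PS1 blood library 1. Trav12-2 had 6 counts in 3 libraries and Trav14-2 had 7 in 4, each in both blood and brain.

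Summed by subgroup, which is the number after Trav, 12 of 23 subgroups were detected. Trav6 led with 26 counts in 8 libraries, then Trav3 with 24 in 4, Trav14 with 18 in 8, Trav16 with 18 in 7, Trav12 with 17 in 8 and Trav4 with 17 in 6. The Trav14 counts lay in 8 libraries with at most 4 each, while 19 of the 24 Trav3 counts lay in the single APP-PS1 brain library named above. The Trav13 subgroup had no count. Trav11 and Trav11d, the segments of the invariant NKT cell alpha chain, and Trav1, used by the invariant alpha chain of MAIT cells, had 0 counts each, under the limit of 2.01% given above.

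**Figure D1:**
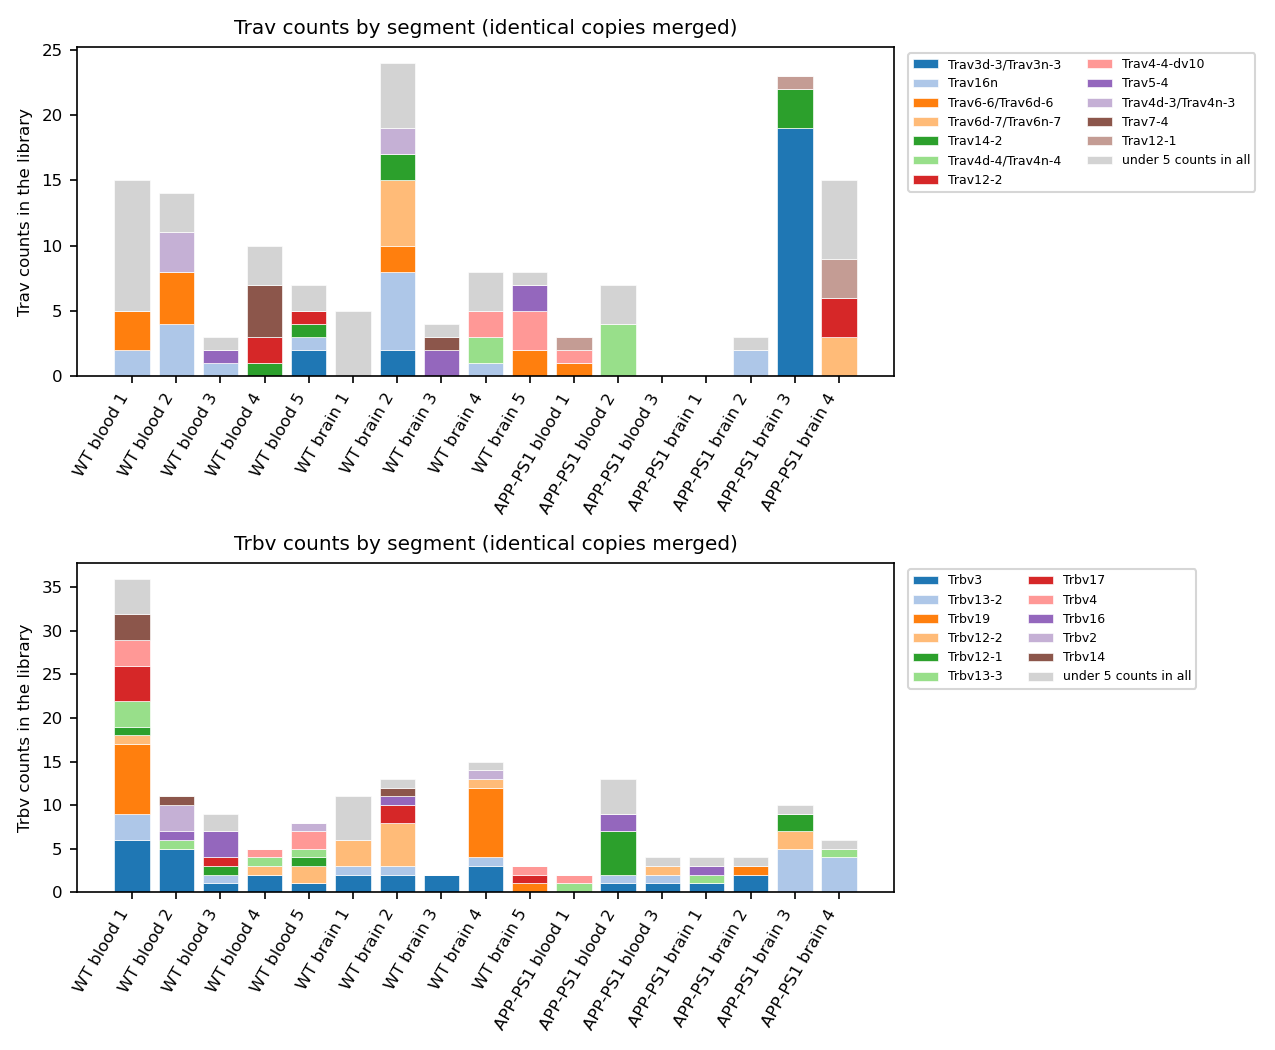
Stacked counts of V segments in each of the 17 libraries, Trav above and Trbv below, with identical copies added together and sequences under 5 counts in all in grey. Trav3d-3/Trav3n-3 fills 19 of 23 Trav counts in APP-PS1 brain library 3, and Trbv19 fills 8 of 15 Trbv counts in WT brain library 4, whereas Trbv3 is spread over 13 libraries.

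At the beta locus, on chromosome 6 from 40891229 to 41558452, 19 of 35 segments were detected with 156 counts. Of 22 functional segments 19 had a count, the exceptions being Trbv21, Trbv26 and Trbv30, and 0 of 13 pseudogenes had one. Coverage per segment was higher than at the alpha locus because fewer segments share the counts: 14 segments were seen in at least 3 libraries, and 11 with at least 5 counts held 134 of 156 counts. The same limit of 3 counts allows a segment at 0 a share of up to 1.92%.

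Trbv3, known by its older name Tcrb-V16 (older names are those of the RefSeq gene table), led with 29 counts in 13 of 17 libraries, 18.6% of all Trbv counts (interval 12.8 to 25.6%). WT blood libraries 1 to 5 had 6, 5, 1, 2 and 1 counts, WT brain libraries 1 to 5 had 2, 2, 2, 3 and 0, APP-PS1 blood libraries 1 to 3 had 0, 1 and 1, and APP-PS1 brain libraries 1 to 4 had 1, 2, 0 and 0. It was present in every group and no library held more than 6 counts. Its share was 21.7% in WT blood (12.7 to 33.3%), 20.5% in WT brain (9.80 to 35.3%), 10.5% in APP-PS1 blood (1.30 to 33.1%) and 12.5% in APP-PS1 brain (2.66 to 32.4%), and these intervals overlap.

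Trbv19, older name Tcrb-V6, had 18 counts in only 4 libraries. WT blood library 1 held 8 of its counts (22.2% of 36 Trbv counts, interval 10.1 to 39.2%), WT brain library 4 held 8 (53.3% of 15, interval 26.6 to 78.7%), and WT brain library 5 and APP-PS1 brain library 2 held 1 each. The other 13 libraries had none. The group shares of 11.6% in WT blood and 20.5% in WT brain therefore rest wholly (WT blood) or in 8 of 9 counts (WT brain) on a single library.

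Trbv13-2, older name Tcrb-V8.2, also had 18 counts, in 9 libraries. In APP-PS1 brain it had 0, 0, 5 and 4 counts in libraries 1 to 4, that is 5 of 10 Trbv counts in library 3 and 4 of 6 in library 4. The other groups had 3, 0, 1, 0 and 0 counts in WT blood, 1, 1, 0, 1 and 0 in WT brain, and 0, 1 and 1 in APP-PS1 blood. Its share of pooled Trbv counts was 37.5% in APP-PS1 brain (interval 18.8 to 59.4%), 6.82% in WT brain (1.43 to 18.7%), 5.80% in WT blood (1.60 to 14.2%) and 10.5% in APP-PS1 blood (1.30 to 33.1%). The APP-PS1 brain interval overlaps that of APP-PS1 blood. It lies above the WT blood interval and only just above the WT brain interval (18.8% against 18.7%). These intervals treat pooled counts as independent and leave out the spread between libraries. In APP-PS1 brain 2 of 4 libraries had no count of the segment. The APP-PS1 brain share was 28.6% without library 3 and 27.8% without library 4. In addition, the levels of the segment in CPM overlapped between the groups, from 0 to 88.9 CPM in APP-PS1 brain and from 0 to 13.6 CPM in WT brain.

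Trbv12-2, older name Tcrb-V5.1, had 16 counts in 8 libraries, with 3 and 5 in WT brain libraries 1 and 2 and no more than 2 in any other. Its close relative Trbv12-1 had 10 counts, of which 5 were in APP-PS1 blood library 2, and none in WT brain. Without that library the top share of APP-PS1 blood fell from 26.3% to 16.7%. Trbv13-3 had 9 counts in 7 libraries, 6 of them in WT blood and none in WT brain. Trbv4, Trbv16 and Trbv17 had 8 counts each in 5, 5 and 4 libraries. Trbv31, which lies in the opposite orientation to the other 34 Trbv segments, had 3 counts in WT brain library 1 and 1 in WT blood library 1.

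By subgroup the Trbv13 segments (older name Tcrb-V8) were the most counted, with 31 counts in 15 of 17 libraries, then Trbv3 with 29 in 13 and the Trbv12 segments (older name Tcrb-V5) with 26 in 10. In APP-PS1 brain, Trbv13 held 54.2% of the Trbv counts (interval 32.8 to 74.4%), of which 6 and 5 counts were in libraries 3 and 4.

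Counts differed along both loci. Ordered by distance from the constant gene and split into 3 groups of near-equal size, the Trav segments nearest to Trac had 51 counts (43 segments, 243 to 766 kb away), the middle ones 61 (43 segments, 777 to 1178 kb) and the farthest 37 (42 segments, 1188 to 1793 kb). These Trav values are by symbol, although 68 of the 149 counts are of identical copies at different distances and 19 are of Trav3d-3/Trav3n-3 in 1 library. For Trbv, ordered by distance from Trbc1, the nearest 12 segments had 11 counts, the middle 12 had 98 and the farthest 11 had 47. The highest Trbv sum was that of the middle group, where Trbv12, Trbv13, Trbv16, Trbv17 and Trbv19 lie, and Trbv3 to Trbv5 lie in the farthest group. The groups include pseudogenes at both loci, and the 13 Trbv pseudogenes, all at 0, lie unevenly. Trbv6 to Trbv11 are among the farthest, Trbv22, Trbv24, Trbv25, Trbv27 and Trbv28 among the nearest, and only Trbv12-3 and Trbv18 in the middle. From nearest to farthest, 4, 10 and 5 Trbv segments were detected. Every functional segment of the middle and farthest groups had a count, and the exceptions Trbv21, Trbv26 and Trbv30 were among the nearest. Counts per functional segment were not compared, so the sums do not show a gathering by position apart from pseudogene content.

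**Figure D2:**
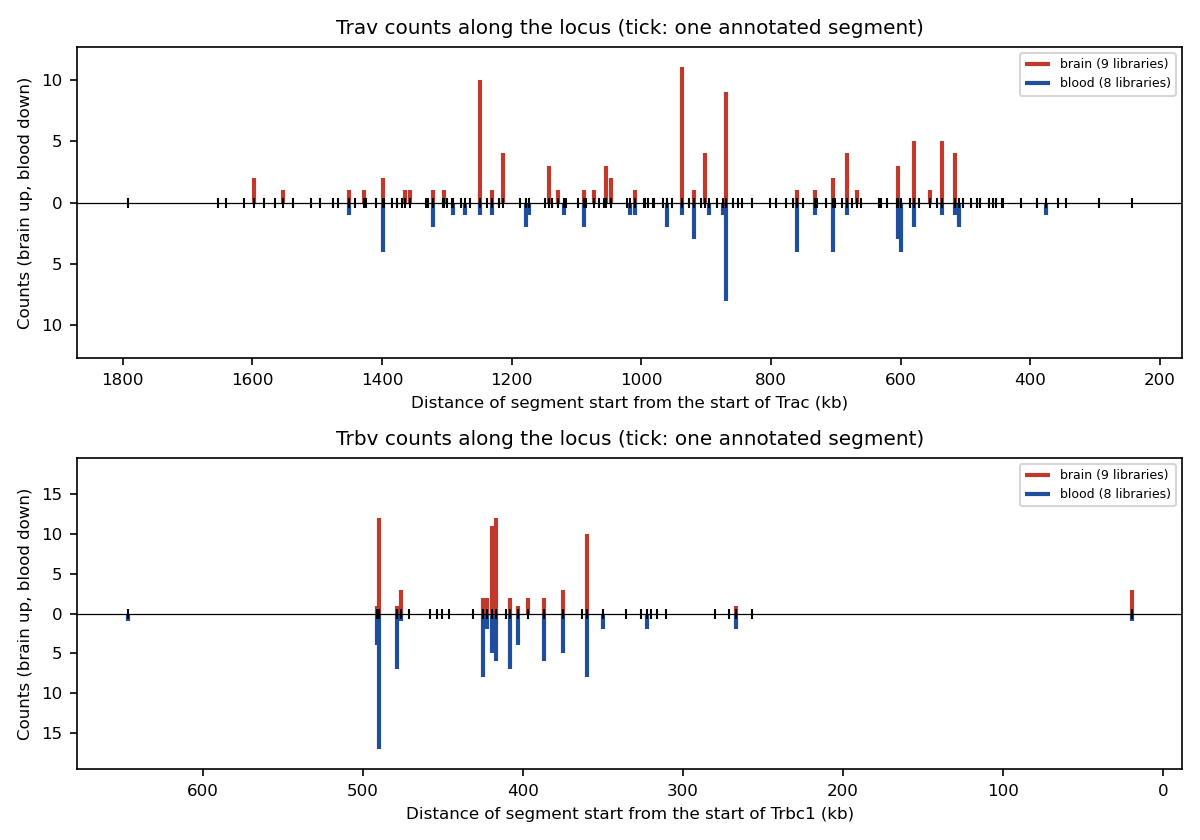
Counts of each segment summed over the 9 brain libraries (up, red) and the 8 blood libraries (down, blue) against the distance in kb of the segment start from the start of Trac (upper panel) or Trbc1 (lower panel), with a tick for each annotated segment. Trav counts are scattered over 243 to 1793 kb, whereas most Trbv counts lie between about the middle of the array and Trbv3. The ticks do not set pseudogenes apart.

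Evenness was measured by the chance that 2 counts drawn from the same library belong to the same segment, pooled over the libraries of a group. Its inverse, the effective number of segments, is the number of equally used segments that would give the same chance. By symbol, the effective number of Trav segments was 10.2 in WT blood, 12.4 in WT brain, 8 in APP-PS1 blood and 3.76 in APP-PS1 brain. With identical copies added together it was 7.36, 8.49, 4 and 1.89. The low APP-PS1 brain value came from library 3: without it the value was 9 by symbol and 6.35 with copies added. APP-PS1 blood had only 10 Trav counts, of which 7 were in 1 library.

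For Trbv the effective number was 9.49 in WT blood, 4.75 in WT brain, 7.73 in APP-PS1 blood and 3.79 in APP-PS1 brain. Both brain groups were below both blood groups. Pooling is over count pairs, so libraries with more counts weigh far more, and each blood value rests mainly on 1 library. Without WT blood library 1, 129 of the 759 WT blood pairs remained. Without APP-PS1 blood library 2, 7 of the 85 APP-PS1 blood pairs remained. Leaving out each library in turn gave 6.79 to 10.5 in WT blood, 4.21 to 6.85 in WT brain, 7.18 to 7.64 in APP-PS1 blood (2 of its 3 libraries could be left out) and 3.47 to 4.38 in APP-PS1 brain, so the ranges of WT blood and WT brain overlap, as do those of WT brain and APP-PS1 brain. The number of Trbv counts was 69 in WT blood, 44 in WT brain, 19 in APP-PS1 blood and 24 in APP-PS1 brain. No p-value was computed for these summaries.

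Libraries with at least 10 counts can be set side by side. For Trav, with identical copies added, the effective number was 9.55, 5.69 and 6.43 in WT blood libraries 1, 2 and 4, 9.52 in WT brain library 2, and 1.45 and 6.56 in APP-PS1 brain libraries 3 and 4. Only APP-PS1 brain library 3 fell outside 5.69 to 9.55. For Trbv the values were 10.3 and 4.23 in WT blood libraries 1 and 2, 7.86, 6.50 and 3.39 in WT brain libraries 1, 2 and 4, 7.09 in APP-PS1 blood library 2 and 3.75 in APP-PS1 brain library 3. Here the brain and blood libraries overlapped. Thinned to 10 counts, the expected number of Trbv segments detected ran from 4 in APP-PS1 brain library 3 to 6.79 in WT blood library 1, with 4.64 in WT brain library 4 and 4.73 in WT blood library 2.

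**Figure D3:**
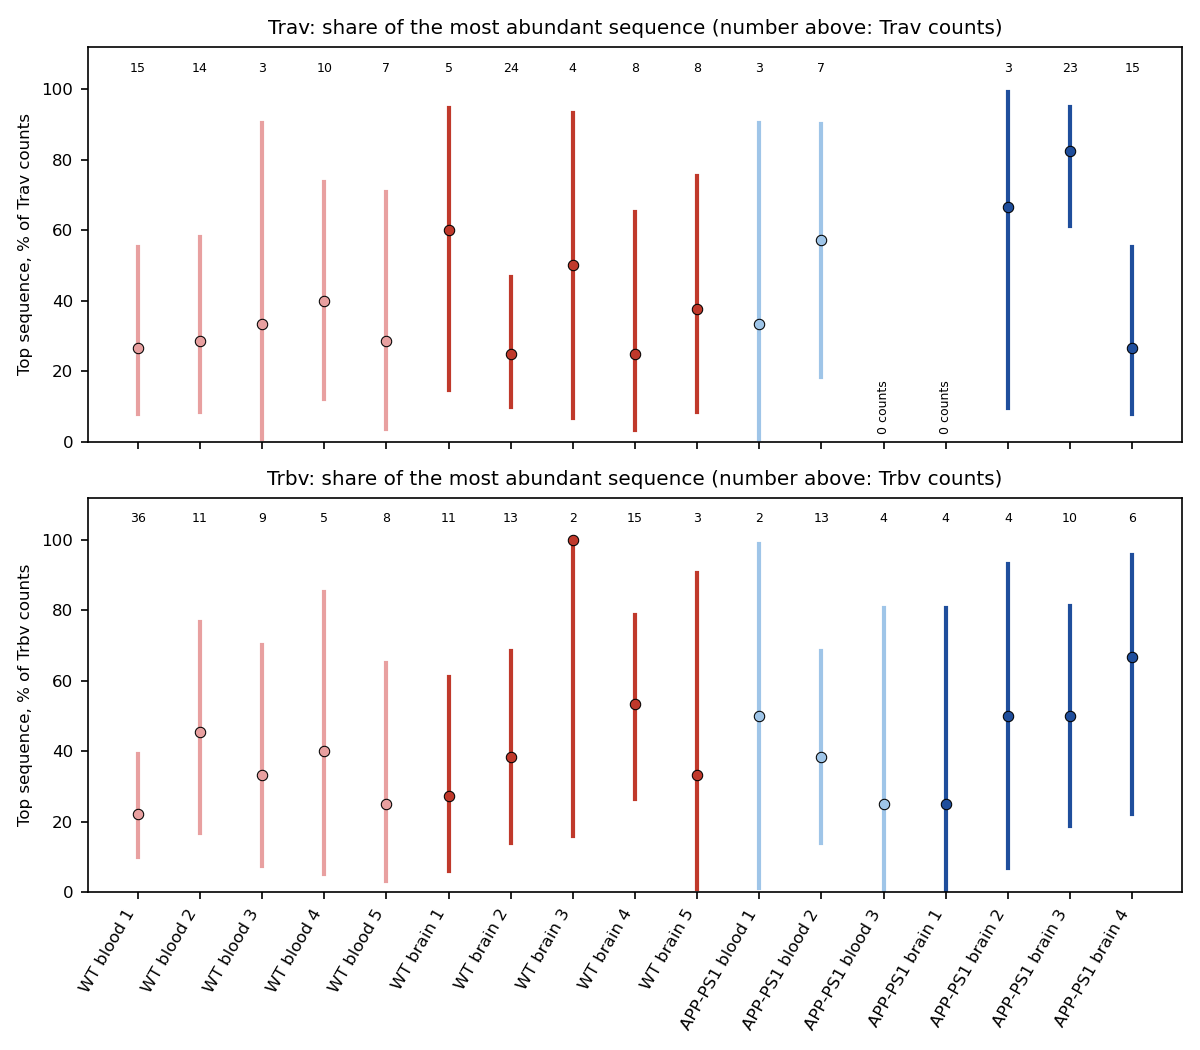
Share of the most counted V sequence in each library, in percent of its Trav (upper panel) or Trbv counts (lower panel), with exact 95% intervals as lines and the number of counts above each point. APP-PS1 brain library 3 has the highest Trav share, 82.6% of 23 counts, and most other intervals are wide because the libraries hold few counts.

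Counts of the same library shared a segment more often than counts of different libraries. For Trav with copies added, 274 of 998 count pairs within libraries were of the same segment (27.5%), against 344 of 10028 pairs between libraries (3.43%). Without APP-PS1 brain library 3 the values were 13.4% and 3.53%. For Trbv, 161 of 1158 pairs within libraries (13.9%) and 880 of 10932 between libraries (8.05%) matched, and without WT blood library 1 the values were 18.9% and 8.03%. Leaving out any other library gave 27.4 to 33.9% within and 2.60 to 3.92% between libraries for Trav, and 12.3 to 14.1% and 7.76 to 8.72% for Trbv. Count pairs are not independent and no test was made.

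Sharing was also compared within and between groups. For Trav with copies added, pairs of counts from different libraries matched in 4.17% of cases within WT blood, 2.66% within WT brain, 0% of 21 pairs within APP-PS1 blood and 0.654% within APP-PS1 brain. Between groups the lowest of the 6 values was 0.976% (APP-PS1 blood with APP-PS1 brain) and the highest 4.58% (WT blood with WT brain). For Trbv the corresponding values were 7.94%, 9.52%, 3.49% and 11.8% within the 4 groups, in that order, and the 6 values between groups ran from 4.55% (WT brain with APP-PS1 blood) to 9.65% (WT blood with WT brain). These values were not tested.

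The summed level of V segments overlapped between all groups. Summed Trav counts were 33.4 to 160 CPM in WT blood, with a mean of 88.5 ± 48.3 (SD, n = 5), 60.7 to 141 CPM in WT brain (86.3 ± 31.9, n = 5), 0 to 151 CPM in APP-PS1 blood (75.96 ± 75.5, n = 3) and 0 to 409 CPM in APP-PS1 brain (140 ± 186, n = 4). Without APP-PS1 brain library 3 the last mean was 50.9 CPM, and without APP-PS1 blood library 2 that of APP-PS1 blood was 38.4 CPM. The 2 libraries with 0 Trav counts were the shallow APP-PS1 blood library 3 and APP-PS1 brain library 1, where a count of 0 allows up to 73.0 and 109 CPM. In a bulk library, fewer cells of a type and less RNA per cell cannot be told apart.

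Summed Trbv counts were 78.6 to 168 CPM in WT blood (103 ± 37.4, n = 5), 31.3 to 150 CPM in WT brain (82.1 ± 50.1, n = 5), 51.2 to 281 CPM in APP-PS1 blood (143 ± 121, n = 3) and 46.8 to 178 CPM in APP-PS1 brain (104 ± 67.4, n = 4). Without APP-PS1 blood library 2 the APP-PS1 blood mean was 74.3 CPM. Here too the groups overlapped.

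The constant genes were far better covered than the V segments. Trac had 2553 counts, and Trbc1 and Trbc2, which share most of their sequence and cannot be told apart with certainty, had 1613 and 3000. There were 5.84 Trav counts per 100 Trac counts and 3.38 Trbv counts per 100 Trbc1 and Trbc2 counts over all libraries. By group, with counts pooled, the Trav value was 5.54 in WT blood, 4.77 in WT brain, 6.45 in APP-PS1 blood and 8.44 in APP-PS1 brain, and the Trbv value 3.60, 2.98, 4.94 and 2.88. The highest value of each chain was raised by a single library. For Trav, APP-PS1 brain library 3 had 20.2, against 0, 2.07 and 8.11 in libraries 1, 2 and 4. For Trbv, APP-PS1 blood library 2 had 8.61, against 1.36 and 4.60 in libraries 1 and 3. Mean Trac levels, with SD, were 1511 ± 564 CPM in WT blood (n = 5), 1924 ± 511 in WT brain (n = 5), 1231 ± 516 in APP-PS1 blood (n = 3) and 1673 ± 258 in APP-PS1 brain (n = 4).

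**Figure D4:**
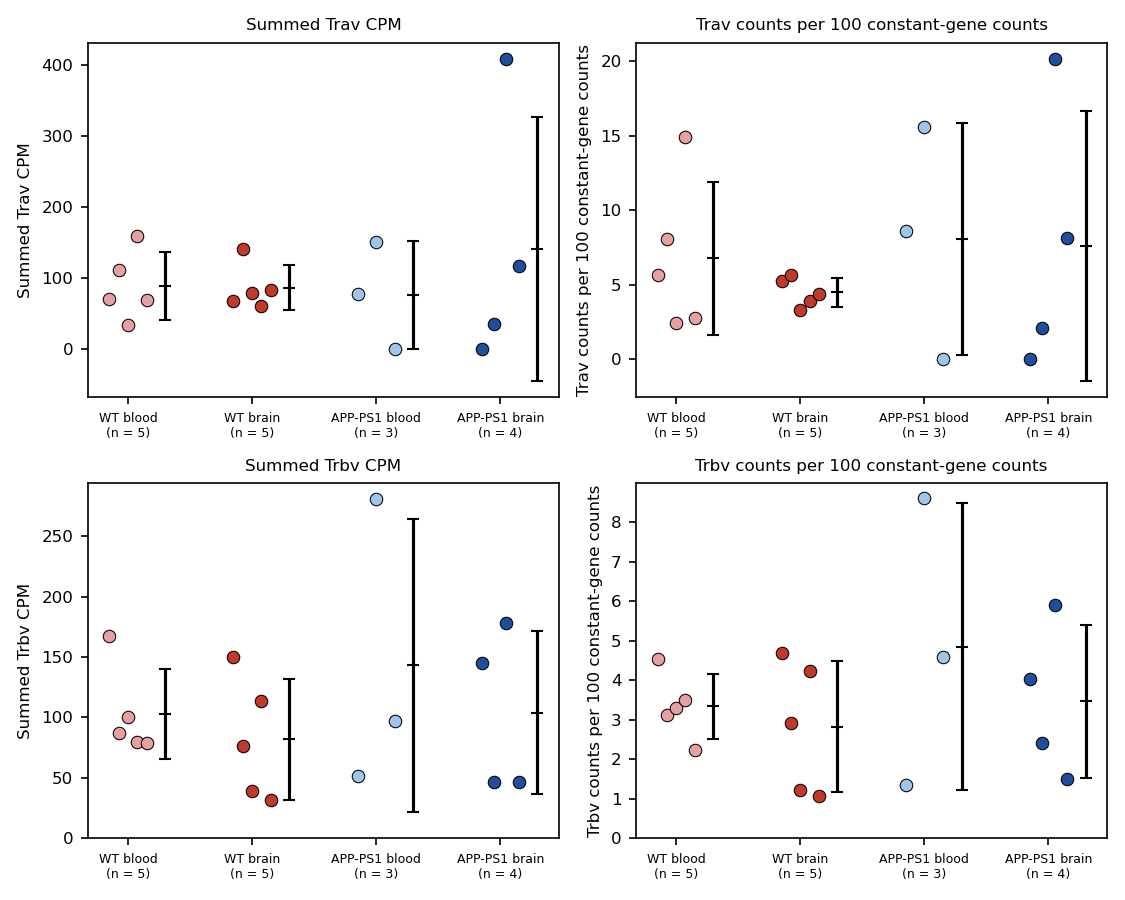
Summed V segment level in CPM (left) and V counts per 100 counts of the constant genes (right) in each library for Trav (top) and Trbv (bottom), with the group mean and SD beside the points. The groups overlap in all 4 panels, and the highest Trav value, 409 CPM, is APP-PS1 brain library 3.

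Differences of single segments between groups were tested with the quasi-likelihood F test of edgeR, and p-values were adjusted by the method of Benjamini and Hochberg over the whole table. At the standard filter on low counts 2366 genes were tested and 0 of 163 segments passed the filter, so this fit says nothing about them. Over all genes it called 0.761% in WT brain against WT blood, 0.549% in APP-PS1 brain against APP-PS1 blood, 0% in APP-PS1 against WT brain, 0.0423% in APP-PS1 against WT blood, 2.62% in brain against blood averaged over the strains and 0.0423% for the interaction of strain and tissue.

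With a lower filter, at least 5 CPM in at least 3 libraries, 10167 genes and 24 segments were tested, and edgeR called 0 segments in each of the 6 comparisons. The background was 0.167%, 0.157%, 0%, 0.0689%, 0.541% and 0.00984% of all genes called, in the order above. At an unadjusted p under 0.05, 3, 3, 6, 1, 2 and 3 of the 24 segments passed, beside 7.89%, 8.56%, 6.38%, 7.49%, 10.7% and 6.58% of all genes. The smallest adjusted p of a segment was 0.417, for Trbv12-1 in brain against blood averaged over the strains, with a fitted log2 fold change of -2.13 (SE 0.96). WT brain had no count of it, and a fitted value against a group at 0 depends on the prior count. The 24 segments passed this filter through the groups where they were high, so their counts are not those of all 163.

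With no filter beyond 1 count, 64 segments among 13539 genes were tested by edgeR and 0 were called, beside 0.118%, 0.0665%, 0%, 0.0369%, 0.34% and 0.00739% of all genes called. At an unadjusted p under 0.05 there were 5, 4, 5, 2, 1 and 4 segments, beside 7.27%, 6.54%, 5.28%, 6.03%, 8.15% and 5.23% of all genes. DESeq2 without a filter called 0 segments as well, with 0 at an unadjusted p under 0.05, and gave no adjusted p for the 64 segments in 4 of the 6 comparisons. In APP-PS1 brain against WT brain at the lower filter, the fitted log2 difference was 3.72 for Trav3n-3 (SE 1.40, adjusted p = 0.769) and 3.57 for Trav3d-3 (SE 1.39, adjusted p = 0.769), each from 1 library. Trbv13-2 had 2.10 (SE 1.28, adjusted p = 0.816), and Trbv3 had -0.72 (SE 1.26, adjusted p = 0.991). In WT brain against WT blood it was 0.45 for Trbv19 (SE 1.17, adjusted p = 0.993).

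No segment had CPM values that did not overlap between the groups, 0 of 57, 33, 49 and 48 segments with a count in WT brain against WT blood, APP-PS1 brain against APP-PS1 blood, APP-PS1 against WT brain and APP-PS1 against WT blood, while 0.973%, 4.43%, 1.05% and 3.66% of all genes with a count had. In each group the lowest library was at 0 for every segment except Trbv3 in WT blood (lowest 9.82 CPM). A segment at 0 in a library of both groups cannot separate them. The low counts thus nearly fixed this result, and it says little about segment usage.

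Among the 19 listed genes of the receptor complex and its proximal signalling, 18 passed the standard filter, and 1 was called in 1 of 6 comparisons. Cd3g, a signalling chain of the CD3 complex, was higher in brain than in blood averaged over the strains, with a log2 difference of 0.65 (SE 0.19) and an adjusted p of 0.0402 by edgeR. Leaving out a library ended this call for 13 of 17 libraries, with adjusted p of 0.0511 to 0.113. The constant genes were called in none of the 6 comparisons. Their values for WT brain against WT blood were 0.27 for Trac (SE 0.24, adjusted p = 0.868), -0.43 for Trbc1 (SE 0.25, adjusted p = 0.759) and 0.00 for Trbc2 (SE 0.20, adjusted p = 1.00).

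The other pieces of the receptor loci were scarcer still. Of 60 Traj segments 7 were detected with 10 counts, of 14 Trbj segments 4 with 4 counts, and of 2 Trbd segments 0. Traj18, the J segment of the invariant NKT cell chain, had 1 count, in WT blood. The single Trgv segment listed, Trgv2 of the gamma chain, had 129 counts in 14 libraries, against 149 for all Trav segments together, and 6 Trdv segments had 4 counts, while the delta constant gene Trdc was at 0. Of 11 V(D)J recombination genes, Rag1, Rag2 and Dntt, which act in developing lymphocytes, were at 0, and 1, Hmgb1, passed the standard filter and was not called.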

How the data were processed

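The table the authors deposited holds raw read counts, 1 whole number for each gene in each library. Tools listed in the submitters' processing notes, with no role stated, are HTSeq 0.11.2, Bowtie2 2.2.2, FastQC and DESeq2, with GRCm38 as build. The annotation release, strand setting and treatment of reads matching several segments are not given in the sources used. Shares, CPM on library totals and exact intervals (SciPy 1.17.1) were computed from these counts. Coordinates, sequences and biotypes came from GENCODE M21. Tests used edgeR 4.0.16 (TMM, filterByExpr, robust quasi-likelihood F test, 1 mean per group over 17 libraries) and DESeq2 1.42.0 in R 4.3.3, with a threshold of 0.05 on the adjusted p. The SE is the absolute log2 fold change over the square root of F. The edgeR fit was tested on simulated data. Recovery of changed genes was scored there only for genes with far more counts than any segment had, so it does not cover the segments. The labels used do not say that each library came from a separate mouse and pair no libraries, so the spread behind each p-value may be technical. Both APP-PS1 groups hold males and females, so each came from more than a single mouse. Members and lists were chosen with earlier results of these data known. Named were the 10 segments of each chain with the highest mean share, the top segment of each library, Trav11, Trav11d, Trav1 and the constant genes. Other segments were named after their values were seen, and the merging of identical copies was added then. Alternatives were RLE size factors, DESeq2, other filters, sex as a term, only the groups compared, other evenness measures and leaving out each library.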

Additional observations from a re-analysis of the deposited data

Results flagged for a closer look

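A sample was checked against its group where a segment or merged pair had at least 5 counts in the group or for the summed levels, in groups of 4 or 5 libraries. Of 27 such groups of values 7 had a library far from the others. Chance marks about 1 in 20 groups of continuous values, but this rate does not hold for sparse counts, where a library is marked by construction if all others are at 0, as in 3 of the 7.

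In WT brain, library 2 had a summed Trav level of 141 CPM, against 83.5 CPM in the next library. The same library had 35.3 CPM of Trav16n, against 7.59 CPM, and 29.4 CPM of Trav6d-7/Trav6n-7, against 0 in the other 4. In APP-PS1 brain, library 3 had 338 CPM of Trav3d-3/Trav3n-3, against 0 in the other 3.

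In WT blood, library 1 had a summed Trbv level of 168 CPM, against 100.3 CPM in the next, and 37.3 CPM of Trbv19, against 0 in the other 4. In WT brain, library 4 had 60.7 CPM of Trbv19, against 10.4 CPM in the next. The single-segment values rest on 5 to 19 counts each.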

How the results depend on the processing

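Of the recomputed shares, levels and evenness values, 142 planned ones and 12 added after the data were seen stayed within the spread between libraries, and 12 and 4 moved further. Of the recomputed counts of called segments, 124 came from fits in which 0 segments passed the filter, so they could only be 0 and say nothing about stability. Fits that tested segments gave 12 planned and 116 added counts, all 0.

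The effective number of Trav segments fell in WT blood from 10.2 to 4.57 by subgroup and 7.36 with identical copies added. In WT brain it fell from 12.4 to 5.80 by subgroup and 8.49 with copies added, and in APP-PS1 blood from 8 to 4 by subgroup and 4 with copies added. The exponential of the Shannon entropy, another measure, was 6.40 in WT blood. In a library it cannot exceed the number of segments detected, which was 9, 7 and 6 in WT blood libraries 1, 2 and 4. Its distance from 10.2, a value estimated from count pairs, thus says nothing about evenness. Thinned to 10 counts, the expected number of Trav segments detected was 6.40 in WT blood and 7.72 in WT brain, the latter from library 2 alone. This expected number is another measure and cannot exceed 10, so its distance from 10.2 and 12.4 says nothing about evenness. The top Trav share rose by subgroup from 30.0% to 50.0% in APP-PS1 blood and from 24.4% to 46.3% in APP-PS1 brain, where adding copies also gave 46.3%. The top Trbv share in APP-PS1 brain rose from 37.5% to 54.2% by subgroup. Subgroups and merged copies are fewer classes, which by construction lowers the number and raises the share.

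Leaving out each library gave effective Trav numbers of 9.38 to 11.6 in WT blood, 9 to 13.3 in WT brain, 7 to 8 in APP-PS1 blood and 3.01 to 9 in APP-PS1 brain. The top Trav share was 11.4 to 20.5% in WT blood, 14.6 to 20.0% in WT brain, 30.0 to 42.9% in APP-PS1 blood and 16.7 to 38.5% in APP-PS1 brain. The APP-PS1 brain share reached 38.5% without library 4 and 16.7% without library 3.

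No paired analysis was possible because the labels give the libraries no shared replicate numbers. Depth limits the shares: 305 counts over 163 segments and 17 libraries cannot show differences in share smaller than the intervals given.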
